A study of Mus musculus with 8 samples.

Results

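S100a8 and S100a9 encode the subunits of calprotectin, and both were taken by their annotated gene symbols from the array data on forepaw skin of 8 C57Bl/6 mice. They are 2 of the 30687 genes measured, with 1 probe set each. All mice were 8 weeks old. Of these, 4 were Krt16 null, with the coding sequence of Krt16 replaced by the bacterial LacZ gene, and 4 were wild-type (WT) littermates; each genotype had 2 males and 2 females, with 1 array per mouse. Krt16 encodes keratin 16, which footpad epidermis makes constitutively and other epidermis makes under stress. The labels name no cell type to which the LacZ replacement is limited. Every null paw was labelled as lesional and every WT paw as normal; effects of the genotype and of the lesion cannot be told apart. Both genes were chosen because they were already known to be much higher in the null arrays; their levels by genotype are therefore described without a test.

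S100A8 and S100A9 are small calcium-binding proteins that pair as calprotectin. The complex withholds zinc and manganese from microbes, acts as an alarmin outside the cell, where Toll-like receptor 4 and the receptor RAGE (encoded by Ager) are its best known receptors, and helps to deliver arachidonic acid to the NADPH oxidase. Neutrophils and monocytes hold it as an abundant cytosolic protein, whereas keratinocytes hold little in resting skin and much in wounded, psoriatic or otherwise stressed epidermis. In whole skin the RNA can thus come from epidermis, from blood-derived cells or from both. In such bulk samples fewer cells of a type and less RNA per cell cannot be told apart.

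The genes lie next to each other on mouse chromosome 3, in the epidermal differentiation region, and are read from opposite strands. The windows shown here are the RefSeq sequences (GRCm38.p6) that start 250 bases before each annotated start and run 6 bases past it, chr3:90668821-90669076 on the plus strand for S100a8 and chr3:90695716-90695971 on the minus strand for S100a9. They are shown because the 2 genes moved together on these arrays. Capitals mark matches to the motifs that were searched for.

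S100a8: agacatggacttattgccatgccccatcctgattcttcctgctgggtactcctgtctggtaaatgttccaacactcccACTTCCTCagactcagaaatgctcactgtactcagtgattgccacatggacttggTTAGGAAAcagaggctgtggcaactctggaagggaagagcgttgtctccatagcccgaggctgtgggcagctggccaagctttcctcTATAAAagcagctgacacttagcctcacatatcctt

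S100a9: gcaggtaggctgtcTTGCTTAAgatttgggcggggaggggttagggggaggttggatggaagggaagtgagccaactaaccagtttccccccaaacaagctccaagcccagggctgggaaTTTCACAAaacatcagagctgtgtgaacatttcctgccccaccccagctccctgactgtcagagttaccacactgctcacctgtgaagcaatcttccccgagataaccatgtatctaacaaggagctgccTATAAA

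Both windows held 1 TATA box (TATAAA on the gene's strand, present in 8.32% of the 32851 RefSeq windows of 300 bases). It stood just upstream of the annotated start of S100a8, from base 221 of the window, and began at the annotated start of S100a9, base 251. The pattern TTNNGNAA of C/EBP factors, which drive myeloid and stress-induced transcription, was found on either strand 1 time in the S100a8 window and 2 times in the S100a9 window, and in 40.68% of all windows. The letters GAGGAAGT, an ETS core bound by the myeloid factor PU.1, were found 1 time in S100a8, on the reverse strand, and in 3.2% of all windows. The windows of 300 bases held no match, on either strand, to the AP-1 pattern TGANTCA (7.81% of all windows), the STAT pattern TTCNNNGAA (8.3%) or the NF-kB pattern GGGANNTCC (4.3%). The C/EBP, PU.1 and TATA matches did not overlap one another. A match is a description of letters and not a bound site.

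Signals are RMA values on the log2 scale, in which 1 unit is a 2-fold difference. In WT skin S100a8 read 3.25 and 4.30 in the males and 8.70 and 5.21 in the females. The null arrays read 10.73 and 11.44 in males and 11.18 and 10.87 in females. All 4 null arrays thus lay above all WT arrays, and 1 WT array, female WT 1, stood between the null arrays and the rest. S100a9 read 3.85 and 4.65 in WT males, 8.58 and 4.92 in WT females, 10.57 and 11.26 in null males and 11.08 and 10.71 in null females. The 8 arrays had the same order for both genes: male null 2, female null 1, female null 2 and male null 1, then female WT 1, female WT 2, male WT 2 and male WT 1. Each array is 1 mouse, so neighbours in this order carry no error of their own.

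**Figure D1:**
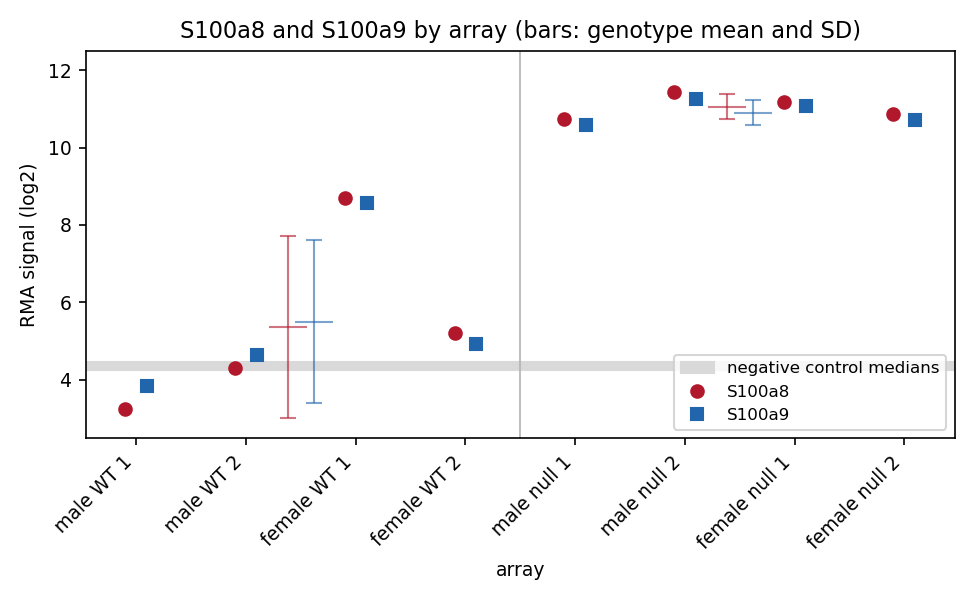
RMA signal (log2, vertical axis) of S100a8 (circles) and S100a9 (squares) in each array (horizontal axis); bars give the mean and SD of each genotype (n = 4) and the grey band spans the array medians of the negative controls, 4.26 to 4.46. The 4 null arrays lie between 10.57 and 11.44 for both genes, and female WT 1 is the only WT array above 8.

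S100a8 averaged 5.36 ± 2.36 (SD, n = 4) in WT and 11.06 ± 0.32 (SD, n = 4) in null skin, and S100a9 averaged 5.50 ± 2.10 and 10.90 ± 0.32. The null means were higher by 5.69 for S100a8 and 5.40 for S100a9, that is 51.7-fold and 42.3-fold. By this difference they ranked 2 and 3 among all 30687 genes. Between the lowest null and the highest WT array there was a gap of 2.04 for S100a8 and 2.00 for S100a9. Over all genes 7.07% were called higher in null skin and 10.1% had all null arrays above all WT arrays; since the genes were chosen on this contrast, nothing is read from that. Without female WT 1 the differences of the plain means were 6.80 and 6.43, or 112-fold and 86.2-fold. In a fit with sex as a covariate they were 6.71 and 6.39. The lowest WT signals lay at or under the background. S100a8 was 1.01 under the median of the negative control probe sets in male WT 1 and 0.02 under it in male WT 2, and S100a9 was 0.41 under it in male WT 1. The size of the difference is not exact where the WT level is a background reading.

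The spread of the pair was very unequal between the genotypes. In WT skin the SD of S100a8 ranked 4 and that of S100a9 ranked 9 among 30687 genes, against a median SD of 0.0963. In null skin their SDs lay at percentiles 98.2 and 98.3, against a median of 0.0874. These ranks describe the spread over 4 mice each. Most of the WT spread came from female WT 1, which exceeded the mean of all 4 WT arrays by 3.33 for S100a8 and 3.08 for S100a9.

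The log2 ratio of S100a8 to S100a9 varied less than either gene. Its absolute level depends on the probes, and only its changes between arrays can be read. It was 0.16 and 0.18 in null males and 0.10 and 0.16 in null females, with an SD of 0.0351 and a range of 0.0808, while each gene alone ranged over 0.70 and 0.68. In WT skin the ratio was -0.60 and -0.35 in males and 0.12 and 0.29 in females, with an SD of 0.413. The 2 low ratios were those of the WT males, where S100a8 was at or under background. Female WT 1, the WT array with the strongest signals, lay within the range of the null arrays. By sex, within genotype, the ratio differed by -0.32 (male minus female; exact two-sided permutation p = 0.278 over 36 assignments, the smallest possible being 0.0556).

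Sex was not used to choose the genes and could be tested. Males were lower by 1.56 (SE 0.82) for S100a8 and by 1.24 (SE 0.76) for S100a9 in a limma fit with genotype as a covariate, and neither passed (adjusted p = 0.967 for each; 0.0163% of genes were called). Xist and the Y-linked genes Kdm5d, Uty and Eif2s3y matched the sex labels in all 8 arrays. The null minus WT difference was 7.31 in males and 4.07 in females for S100a8, and 6.66 and 4.14 for S100a9. The interaction, 3.24 (SE 1.32) and 2.52 (SE 1.35), did not pass (adjusted p = 0.974 for each; 0.00652% of genes were called), although S100a8 had an unadjusted limma p of 0.0394. It rested on the WT females: it shrank to 1.50 and 0.69 without female WT 1 (adjusted p = 0.737 and 0.776), and grew to 4.98 and 4.35 without female WT 2, where it passed (adjusted p = 0.038 and 0.0376, with 27 genes called). In either case the WT females are 1 array, which is assumed to vary like the other groups.

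Krt16 itself read 8.48 and 8.20 in WT males, 7.05 and 9.66 in WT females, and 6.83 to 6.99 in null skin. The difference of -1.45 (SE 0.44) missed the threshold (limma adjusted p = 0.0614), passed without a sex term (adjusted p = 0.0442) and with same-numbered mice as a block (adjusted p = 0.0284), and was -1.98 without female WT 1, where it passed (adjusted p = 0.000774). Probe positions were not used here, and a probe outside the replaced sequence would check nothing about the allele. Female WT 1, the WT array with the highest calprotectin signals, was thus the WT array with the lowest Krt16 signal.

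To find genes that follow calprotectin within a genotype, each gene's deviations from its genotype mean were compared with those of the mean of S100a8 and S100a9. The measure is the root-mean-square (RMS) distance over 4 arrays, where 0 means identical deviations; it is a description with no test. Ranked were genes with a signal above the highest negative control median, 4.46, in at least 1 of the arrays compared; provisional symbols were left out. Within WT, S100a9 was the nearest of the ranked genes to S100a8 (RMS 0.357), and the same held within null (0.0304) and over all 8 arrays (0.254). The pair's own RMS deviation was 1.93 in WT and 0.274 in null skin, so a gene that does not vary scores about these values. The medians over the genes ranked were 1.94 (13047 genes) and 0.279 (13004 genes).

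Within WT the nearest genes were mostly neutrophil granule and myeloid genes. Ngp, neutrophilic granule protein, came first (RMS 0.498), with signals of 3.17 and 3.35 in WT males and 7.03 and 3.49 in WT females. Retnlg, a resistin-like gene of neutrophils, followed (0.870), with 3.29, 3.27, 5.94 and 3.59 in the same order. Next came Ltf, lactoferrin of the secondary granules (0.901), with 3.94, 4.06, 6.61 and 3.86. In each of these genes female WT 1 was the high array, as their choice by nearness to the pair makes likely. The other WT arrays lay under the negative control medians. The list continued with the cartilage collagen gene Col10a1 (0.999), the chitinase-like gene Chil3 (1.00), the platelet chemokine gene Ppbp (1.04), the neutrophil collagenase gene Mmp8 (1.16) and Lcn2, the siderophore-binding lipocalin (1.23). Col10a1, a gene of hypertrophic cartilage, was high in both WT females (7.51 and 6.39, against 4.83 and 4.68 in males).

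**Figure D2:**
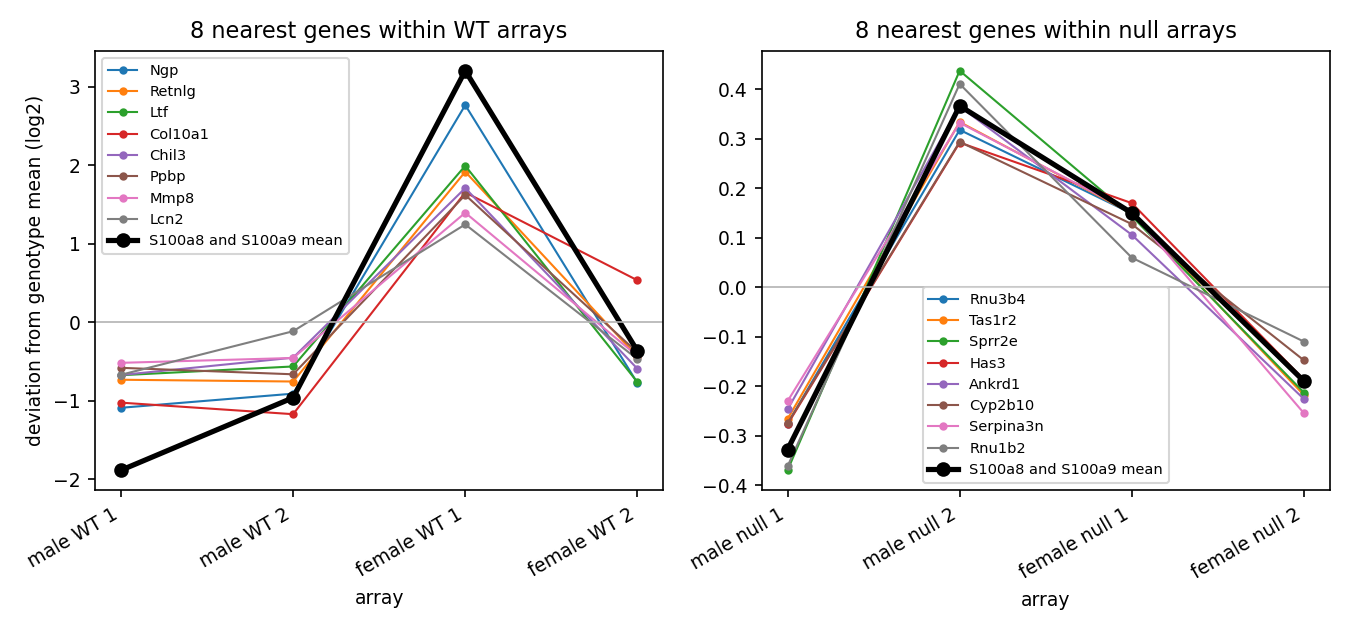
Deviation from the genotype mean (log2, vertical axis) in the 4 WT arrays (left) and the 4 null arrays (right) for the mean of S100a8 and S100a9 (black) and its 8 nearest genes; lines only join points of 1 gene, and the vertical scales differ. In WT the pair reaches 3.20 in female WT 1 and -1.88 in male WT 1, and in null it runs from -0.33 to 0.37.

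Within null skin the nearest genes were others. They were Rnu3b4 and Rnu1b2, small nucleolar and small nuclear RNA genes (RMS 0.0358 and 0.0664), the taste receptor gene Tas1r2 (0.0376), the small proline-rich cornified envelope gene Sprr2e (0.0428), the hyaluronan synthase gene Has3 (0.0462), the ankyrin repeat gene Ankrd1 (0.0496), the cytochrome P450 gene Cyp2b10 (0.0509) and the serpin gene Serpina3n (0.0611). Sprr2e read 8.42 and 9.23 in null males and 8.93 and 8.57 in null females, against 4.24 to 4.50 in WT. Has3 read 5.74, 6.31, 6.19 and 5.83 in null skin. In both genes, as in calprotectin, male null 2 was the highest and male null 1 the lowest array. Their choice by nearness to the pair over these same arrays brings this about, so it is no further likeness. Of the 8, Sprr2e, Has3 and Serpina3n also rose in null skin (4.38, 0.77 and 1.09; adjusted p = 1.08e-06, 0.00614 and 0.00171). No gene was among the 8 nearest in both genotypes. The pair spanned only 0.69 on the log2 scale over the null arrays.

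A slope on the pair's deviations, fitted with 1 slope per genotype over all genes, tests whether other genes moved with calprotectin within a genotype. Within WT 11 genes had a positive slope past the threshold (0.0358%) and 24 a negative one (0.0782%). Ltf (0.57, SE 0.08, adjusted p = 0.0426), Ppbp (0.48, SE 0.05, adjusted p = 0.0225), Lcn2 (0.37, SE 0.04, adjusted p = 0.0225) and the myeloperoxidase gene Mpo (0.26, SE 0.04, adjusted p = 0.0426) rose with the pair, each value being the log2 change per log2 unit of calprotectin. Slopes of 0.81 for Ngp (adjusted p = 0.0526) and 0.57 for Retnlg (0.0676) did not pass. The calcineurin-binding muscle gene Myoz2 rose too (0.27, adjusted p = 0.0151), as did the macrophage gene Vsig4 (0.32, adjusted p = 0.0225).

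The negative slopes held many hair genes. Of 49 keratin-associated protein genes, which encode the matrix of the hair shaft, 9 fell with rising calprotectin. Of 49 keratin genes 2 fell, the hair keratin genes Krt32 and Krt82. Over all genes 0.0782% had a negative slope past the threshold. These families were not among the planned lists and were counted from the called genes. Krtap5-5 read 9.66 and 9.25 in WT males and 7.81 and 9.19 in WT females, a slope of -0.36 (SE 0.03, adjusted p = 0.0151). Among antimicrobial genes the beta-defensin gene Defb4 fell (-0.41, SE 0.05, adjusted p = 0.0365). These hair genes were thus low in female WT 1, where neutrophil granule genes were highest. Without that array 0 genes were called in WT (limma; 2734 at an unadjusted p under 0.05), with larger errors on the slopes. Of the 24 negative slopes 22 kept their sign (median -0.19, against -0.31 with it), and several stayed about as steep: Krt32 had -0.35 with and -0.35 without it (SE 0.14), and Krtap5-5 had -0.36 and -0.32 (SE 0.11). Others flattened: Krtap10-4 went from -0.31 to -0.12, Krt82 from -0.35 to -0.07 and Krtap16-1 from -0.36 to 0.05. In male WT 1, male WT 2 and female WT 2 S100a8 lay -1.01, -0.02 and 0.75 from the negative control median. Slopes without female WT 1 thus rest on readings near the background. Of the 11 positive slopes 10 kept their sign (median 0.12, against 0.27). The slope of Ltf was -0.04 (SE 0.18) without it, that of Ppbp 0.11 (SE 0.15), that of Lcn2 0.17 (SE 0.14) and that of Mpo 0.12 (SE 0.12), and Defb4 had -0.09 (SE 0.15). The number called was 11 without male WT 2, 19 without male null 1, 20 without female null 2 and 65 without female null 1. Whether hair, muscle or blood content of the sample accounts for the signal of this array was not tested.

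Within null skin 1 gene had a positive slope (0.00326%) and 1 a negative one (0.00326%). Ccr3, a chemokine receptor gene of eosinophils and other leukocytes, read 2.84 and 4.04 in null males and 3.66 and 2.90 in null females (slope 1.83, SE 0.16, adjusted p = 0.0345). Trbv20, a T cell receptor segment, read 3.40, 2.25, 2.42 and 3.16 (slope -1.74, SE 0.17, adjusted p = 0.0491). Every one of these signals lay under the negative control medians. The slopes of these genes differed between null and WT skin (1.81 and -1.78; adjusted p = 0.0411 and 0.0412; 0.00326% of genes were called with a higher and 0.00652% with a lower slope in null), as did that of the lipid transporter gene Abca9 (-1.71, adjusted p = 0.0412). None of these calls was kept when any single array was left out. Without male null 1 each comparison called 1 other gene, Ptgs2 (slope 5.07 within null, adjusted p = 0.0285, and 4.96 for the difference, adjusted p = 0.035), while Ccr3 had a slope of 2.06 (adjusted p = 0.0816) and Trbv20 of -1.69 (adjusted p = 0.459) within null. Without each other array 0 genes were called (limma; 1154 to 2682 at an unadjusted p under 0.05). Slopes of Ngp (-2.60, SE 0.81, adjusted p = 0.878), Ltf (-0.98, adjusted p = 0.971) and Lcn2 (1.39, SE 0.29, adjusted p = 0.639) within null did not pass, and the null arrays differed so little in calprotectin that their slopes carry large errors.

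Of the 8 genes nearest to calprotectin in WT, Chil3 and Lcn2 rose in null skin and Ngp, Retnlg, Ltf, Col10a1, Ppbp and Mmp8 did not pass. Chil3 read 3.09 and 3.31 in WT males, 5.47 and 3.17 in WT females, 8.59 and 8.32 in null males and 8.40 and 7.59 in null females, a rise of 4.47 (SE 0.49, adjusted p = 0.000792). Lcn2 rose by 1.49 (adjusted p = 0.0316). Ngp read 4.94 and 3.04 in null males and 4.91 and 5.37 in null females, all under the 7.03 of female WT 1, and its difference of 0.31 (SE 0.69) did not pass (adjusted p = 0.841). Ltf read 4.80, 4.23, 4.77 and 5.24 in null skin (difference 0.14, adjusted p = 0.904). Mmp8 read 2.86, 2.91, 3.30 and 3.61 in null skin and 4.68 in female WT 1 (difference -0.11, adjusted p = 0.882). The difference of Ngp was not called without any single array, and that of Ltf passed without female WT 1 (adjusted p = 0.0247).

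**Figure D3:**
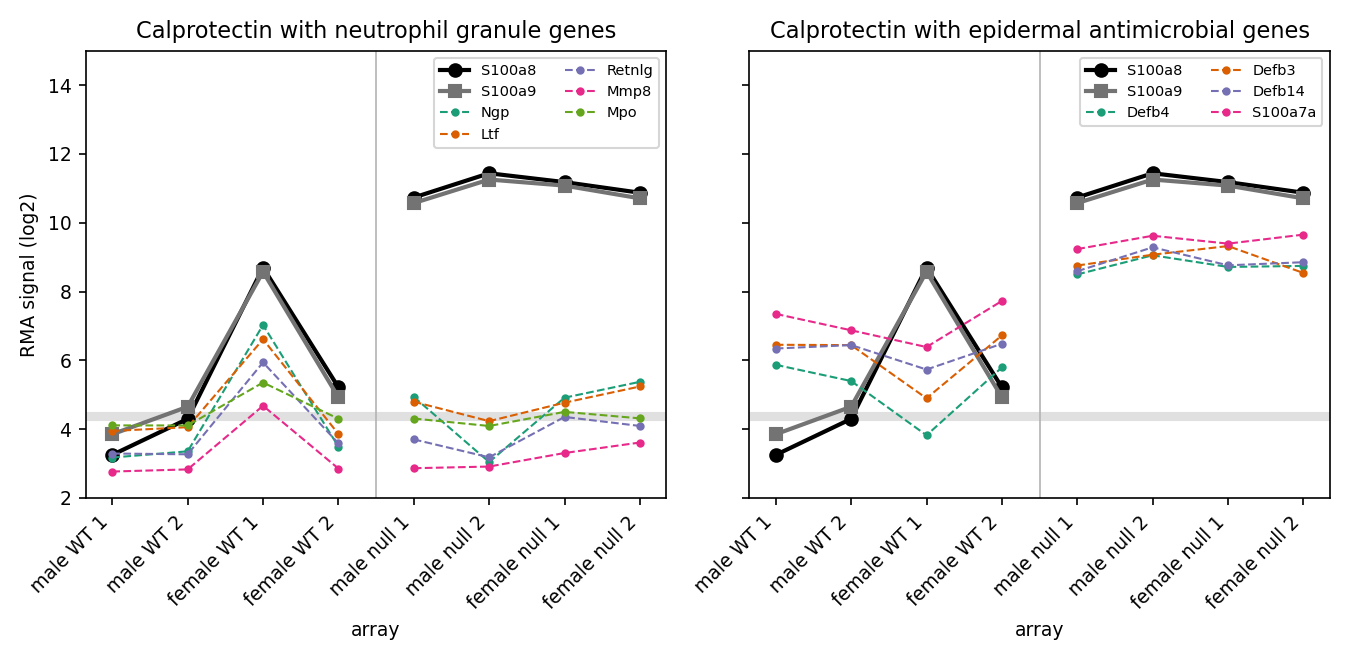
RMA signal (log2, vertical axis) by array of S100a8 and S100a9 (thick lines) with 5 neutrophil granule or secreted genes (left) and 4 epidermal antimicrobial genes (right); lines only join points of 1 gene and the grey band spans the negative control medians. Female WT 1 is the highest WT array for the 5 genes on the left and the lowest for the 4 epidermal genes on the right. The null arrays of these 4 genes lie above 8. Of all 15 epidermal antimicrobial genes measured, female WT 1 is the lowest WT array in 7 and the highest in 4. Of all 20 neutrophil markers measured, it is the highest in 16 and the lowest in 1. The 5 genes on the left were picked from those that follow the pair in WT, so their high value in female WT 1 goes with that choice.

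Epidermal antimicrobial genes rose with calprotectin between the genotypes. Of 15 measured, 10 rose and 0 fell (median 1.09, against 0.01 over all genes; 7.07% of genes rose and 5.99% fell). This list and those below were chosen with earlier results of these data known. A count of rises or falls above the share of all genes is therefore a description only. The beta-defensin genes Defb4, Defb3 and Defb14 rose by 3.53 (SE 0.37, adjusted p = 0.000664), 2.79 (SE 0.35, adjusted p = 0.00165) and 2.62 (SE 0.18, adjusted p = 5.16e-05). Defb4 read 5.87, 5.40, 3.82 and 5.79 in WT (males, then females) and 8.50, 9.05, 8.71 and 8.74 in null skin. Female WT 1, the highest WT array for calprotectin, was the lowest for Defb4, Defb3 (4.89) and Defb14 (5.73). Over the 15 genes it was the lowest WT array in 7 and the highest in 4, among them Lcn2. Of all 30687 genes 8018 were lowest and 7802 highest in this array. Among the null arrays male null 2 was the highest for Defb4 and Defb14, as for calprotectin. The peptidoglycan recognition genes Pglyrp3 and Pglyrp4 rose by 1.97 and 1.45, while Pglyrp1, which neutrophil granules hold, differed by -0.72 (adjusted p = 0.0735) and the cathelicidin gene Camp by -0.16 (adjusted p = 0.685). Left-out arrays gave 8 to 11 rises. The list shares Lcn2 with the metal handling list, S100a7a with the S100 list and Camp with the neutrophil list.

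Of the other S100 genes 1 of 14 rose and 2 fell (median -0.13), where 7.07% of all genes rose and 5.99% fell; the count of rises is near that share. S100a7a, the mouse relative of psoriasin and the next measured gene beside S100a8, read 7.35 and 6.87 in WT males, 6.39 and 7.73 in WT females, 9.23 and 9.62 in null males and 9.39 and 9.65 in null females. It rose by 2.39 (SE 0.25, adjusted p = 0.000664), and again female WT 1 was the lowest WT array. S100a10, the annexin partner, fell by 0.37 (adjusted p = 0.0186) and S100a1 by 0.35 (adjusted p = 0.0318). On the far side of S100a9 the nearest measured gene, Pglyrp4, rose by 1.45 (SE 0.10, adjusted p = 5.16e-05). Beyond S100a7a, S100a6 differed by -0.08 (adjusted p = 0.617). The S100 genes thus did not move as a block along the chromosome. With female null 1, female null 2 or male WT 2 left out S100a10 was not called (0.0507 to 0.0574) and S100a1 was called only with male WT 2 or male null 1 left out (0.057 to 0.102 otherwise). The hair shaft gene S100a3 differed by -0.81 (adjusted p = 0.0519), and passed without female WT 1 (adjusted p = 0.00343) and with same-numbered mice as a block (0.0462). With dim genes left out 2 rose and 3 fell. Rises were 2 without male WT 2; falls were 1 without male WT 1, male WT 2 or male null 2, 3 without male null 1 and 0 without female null 1 or female null 2.

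Of 11 receptors and binding partners 3 rose and 1 fell (median 0.07), where 7.07% of all genes rose and 5.99% fell. The changes called were of 0.66 or less on the log2 scale. The receptor genes best known for calprotectin did not pass: Tlr4 differed by 0.23 (adjusted p = 0.282), Ager by -0.02 (adjusted p = 0.894) and the co-receptor gene Cd14 by 0.38 (adjusted p = 0.104). Emb, which encodes the S100A9 receptor embigin, rose by 0.52 (SE 0.08, adjusted p = 0.00454), Mcam, an adhesion molecule that binds the pair, by 0.48 (adjusted p = 0.0137) and the adaptor gene Myd88 by 0.33 (adjusted p = 0.0239). Cd36, the fatty acid transporter, fell by 0.66 (SE 0.12, adjusted p = 0.00966). Rises numbered 2 without male WT 1, male null 2 or female WT 2 and 1 without female null 1: Myd88 lost its call without each of these (adjusted p 0.0604 to 0.0826) and Mcam without female null 1 (0.0508). Tlr4 passed without female WT 1 (adjusted p = 0.0388), and Cd14 with same-numbered mice as a block (0.0155).

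**Figure D4:**
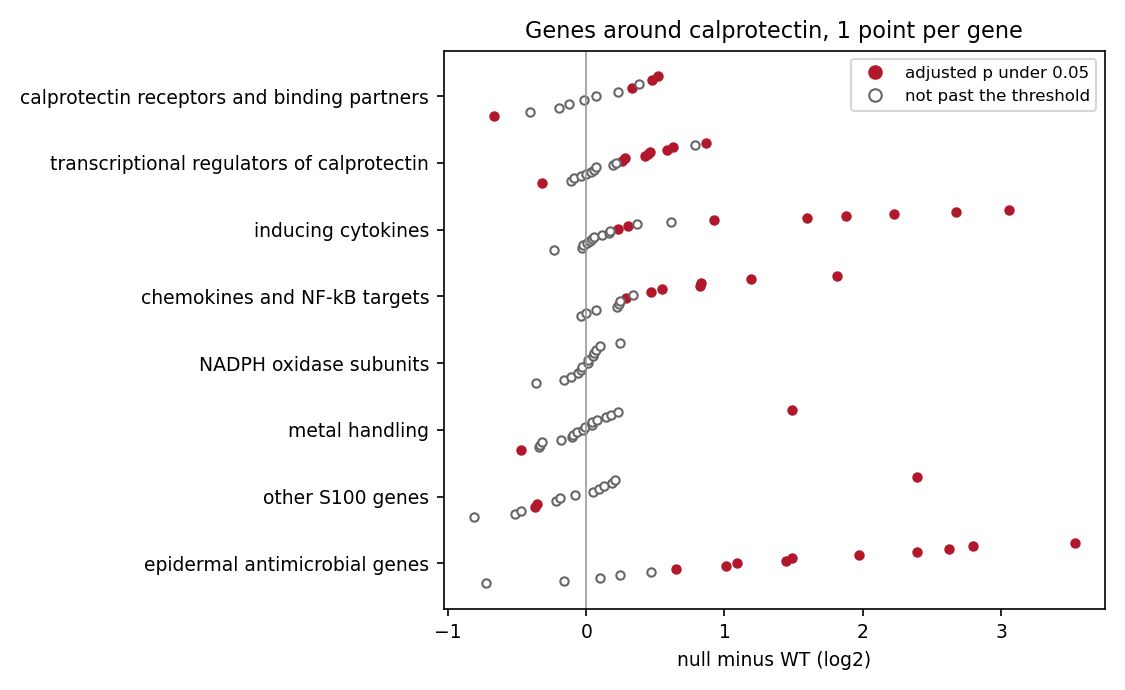
Null minus WT difference (log2, horizontal axis) of each measured gene in the 8 lists around calprotectin (vertical axis), 1 point per gene; filled points passed an adjusted p of 0.05 and open points did not. The antimicrobial, cytokine and chemokine lists reach 3.53, 3.06 and 1.81, and no NADPH oxidase gene passed.

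Among transcriptional regulators tied to the pair 8 of 19 rose and 1 fell (median 0.22), where 7.07% of all genes rose and 5.99% fell. Fosl1, an AP-1 subunit, rose by 0.87 (SE 0.13, adjusted p = 0.00379), Nfkb2 of the non-canonical NF-kB pathway by 0.63 (SE 0.07, adjusted p = 0.000873) and Nfkbiz, an inducible NF-kB cofactor, by 0.58 (SE 0.09, adjusted p = 0.00475). Jun (0.44), Cebpb (0.28) and Stat3 (0.26) also rose. Pparg, a lipid-sensing nuclear receptor, fell by 0.32 (adjusted p = 0.0192). Spi1, which encodes the myeloid factor PU.1, differed by -0.04 (adjusted p = 0.911). Pparg was not called with female null 1, male null 2 or either WT male left out (adjusted p 0.0549 to 0.0681) and Cebpb without male null 2 or female null 1 (0.0573 and 0.0599).

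Of the cytokines that raise calprotectin in keratinocytes, with other epithelial and myeloid cytokines, 8 of 20 rose and 0 fell (median 0.20). In this list 9 genes lay under the highest negative control median, 4.46, in all arrays. Over all genes 7.07% rose and 5.99% fell. Il33, an epithelial alarmin, read 5.47 to 6.25 in WT and 8.71 to 9.12 in null skin and rose by 3.06 (SE 0.15, adjusted p = 5.14e-06). Il19 rose by 2.67 (SE 0.31, adjusted p = 0.00107) and Il1b by 2.22 (SE 0.37, adjusted p = 0.00563). Il24, a relative of Il19, rose by 1.88 and the IL-36 genes Il1f9 and Il1f6 by 1.60 and 0.92. Il17a and Il22, T cell cytokines that induce calprotectin in keratinocytes, differed by -0.03 and 0.06 (adjusted p = 0.873 and 0.713), with means of 3.79 to 3.82 and 3.31 to 3.37, under the negative control medians. Il1b read 5.59 and 6.34 in null males and 6.68 and 4.73 in null females, and Il19 read 6.05, 6.93, 7.37 and 5.75. In both the highest null array was female null 1 and the lowest female null 2, unlike in calprotectin. Left-out arrays gave 6 or 7 rises.

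Chemokines and NF-kB target genes counted 7 rises and 0 falls of 14 (median 0.31), against 7.07% and 5.99% of all genes. Ptgs2, the inducible cyclooxygenase gene, rose by 1.81 (SE 0.52, adjusted p = 0.0491), and so did the neutrophil-attracting chemokine genes Cxcl1 (1.19, SE 0.21, adjusted p = 0.00796) and Cxcl2 (0.83, SE 0.15, adjusted p = 0.00868). Ptgs2 read 5.82 and 8.07 in null males and 7.04 and 5.26 in null females, with the same array highest as for calprotectin. It was not called with either WT male, female WT 2, female null 1 or male null 2 left out (adjusted p 0.0898 to 0.144), after repeated quantile normalization (0.0547), with median centring (0.0502), with no intensity trend (0.0508) and with a robust prior (0.164). Rises numbered 3 without male WT 1, male WT 2 or female WT 2 and 4 without male null 2 or female null 1, and 4 with dim genes left out.

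Calprotectin has partners in the NADPH oxidase and in metal handling. Of 13 NADPH oxidase genes 0 rose and 0 fell (limma; 1 at an unadjusted p under 0.05; median 0.01); the largest single value belonged to the phagocyte subunit gene Cybb (-0.36, adjusted p = 0.416), while the epidermal oxidase gene Duox1 differed by 0.25 (adjusted p = 0.173) and passed without female WT 2 (0.0376). Of the 13 NADPH oxidase genes 5 lay under the highest negative control median, 4.46, in all arrays, and little can be read of these. Of 17 metal handling genes 1 rose and 1 fell (median -0.02), near the 7.07% and 5.99% of all genes. Lcn2 read 4.73 and 5.29 in WT males, 6.65 and 4.93 in WT females, 6.43 and 7.39 in null males and 7.12 and 6.63 in null females. It rose by 1.49 (SE 0.38, adjusted p = 0.0316), and like calprotectin it was highest in female WT 1 among WT and in male null 2 among null arrays. Mt4, the metallothionein gene of stratified epithelium, fell by 0.47 (SE 0.12, adjusted p = 0.0299). Lcn2 kept its call only without female WT 1 or female null 2 among the left-out arrays (0.0503 to 0.0971 without the others) and lost it with a robust prior (0.115). Mt4 lost it without either WT male, female null 1 or female WT 2 (0.0718 to 0.0868). In this list 2 genes rose without female WT 1 or female null 2 and 0 without each other array, and 4 fell without female WT 1.

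Neutrophils can carry calprotectin. Of 20 neutrophil markers 2 rose and 0 fell (median 0.06), where 7.07% of all genes rose and 5.99% fell, so the count is near that share. The rises were in Stfa2l1, a stefin gene with close paralogs, by 3.97 (SE 0.28, adjusted p = 5.8e-05) and the chemokine receptor gene Cxcr2 by 0.44 (SE 0.08, adjusted p = 0.00829). The list mean was 4.25 and 4.30 in WT males, 5.23 and 4.32 in WT females, 4.78 and 4.64 in null males and 4.96 and 4.87 in null females. The highest array was female WT 1, and the null arrays lay above the other 3 WT arrays. The summed linear signal ran from 570.7 to 1007 in WT and from 876.1 to 1031 in null skin. Without Stfa2l1 the list mean was 4.28, 4.34, 5.25 and 4.32 in WT and 4.58, 4.47, 4.79 and 4.73 in null skin. Ly6g, the defining surface marker, read 4.98, 5.08, 5.32 and 4.89 in WT and 4.90 to 5.23 in null skin, and the granulocyte receptor gene Csf3r differed by 0.52 (adjusted p = 0.0876, 0.00511 without female WT 1, and 0.0106 with same-numbered mice as a block). In 16 of 20 neutrophil markers female WT 1 was the highest WT array (80%, against 25.4% of all genes). This was not particular to neutrophil markers. The share was 100% in the monocyte and macrophage, 90% in the skeletal muscle, 85.7% in the mast cell, 83.3% in the endothelial and 80% in the adipocyte list. Rises numbered 5 without female WT 1 and 4 without female null 2 or with same-numbered mice as a block. The part of neutrophil content in the calprotectin signal was not tested.

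**Figure D5:**
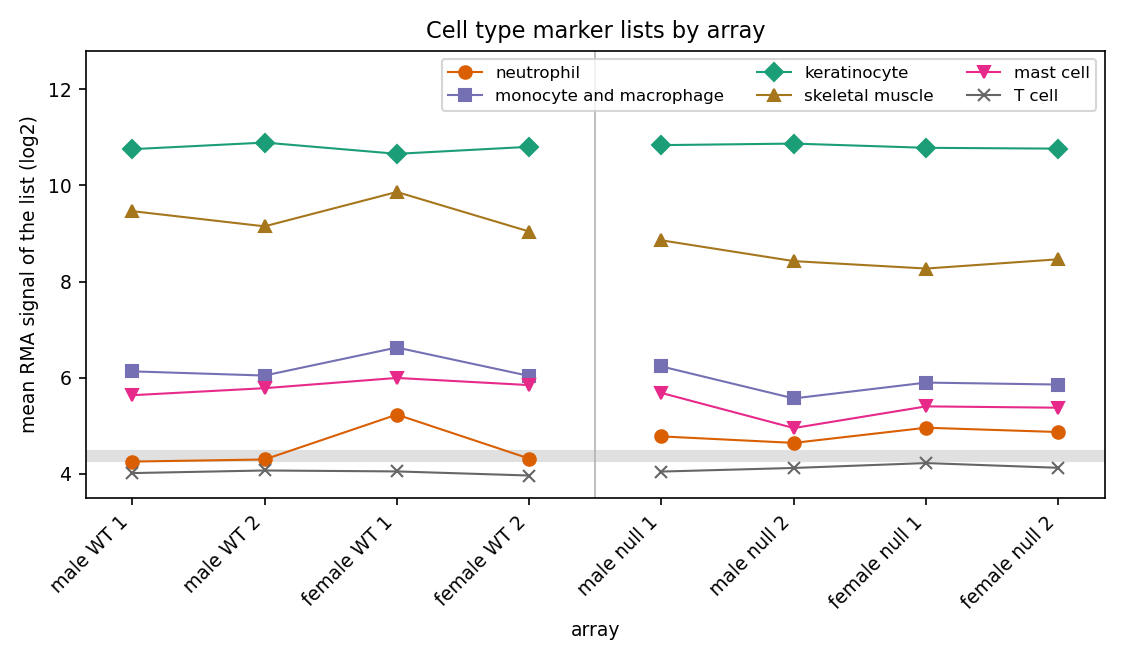
Mean RMA signal (log2, vertical axis) of 6 cell type marker lists in each array (horizontal axis); lines only join points of 1 list and the grey band spans the negative control medians. The neutrophil list is highest in female WT 1 (5.23), and the keratinocyte list stays between 10.66 and 10.89.

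Monocyte and macrophage markers were highest in female WT 1 among WT arrays in 13 of 13 genes, against 25.4% of all genes. The list mean was 6.63 there, 6.04 to 6.13 in the other WT arrays and 5.57 to 6.23 in null skin. Of the 13, 0 rose and 2 fell between genotypes: the scavenger receptor gene Cd163 by 0.97 (SE 0.21, adjusted p = 0.0161) and the complement gene C1qc by 0.59 (adjusted p = 0.0419). Over all genes 7.07% rose and 5.99% fell. In 9 of the 13 markers the lowest null array was male null 2, the array with the most calprotectin signal. It was also the lowest null array in 6670 of all 30687 genes, in 5 of 7 mast cell and in 4 of 5 adipocyte genes. Lyz2, the lysozyme gene, read 7.24 in male null 2 against 7.94 to 8.71 in the other null arrays. Falls numbered 7 without male null 1, 0 without female null 1 and 1 without each other array. C1qc kept its call only without male null 1 (adjusted p 0.0549 to 0.107 without the others) and Cd163 lost it without female null 1 (0.0593).

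Keratinocyte markers checked the labelled tissue, with list means of 10.66 to 10.89 in WT and 10.76 to 10.87 in null skin. Of 13, 2 rose (the desmoglein gene Dsg3 by 1.10 and Sfn by 0.72; adjusted p = 0.00116 and 0.000457) and 3 fell (Krt2 by 0.60, Krt15 by 0.56 and Lor by 0.35; adjusted p = 0.000923, 0.00469 and 0.0346); the basal keratin gene Krt14 differed by 0.20 (adjusted p = 0.316). Of all genes 7.07% rose and 5.99% fell. Female WT 1 was the lowest WT array in 9 of the 13 keratinocyte genes, and in 8018 of all 30687 genes. The calprotectin-rich WT array thus had slightly less signal of keratinocyte genes. Its list means were the highest among WT arrays for neutrophil, monocyte and macrophage, mast cell, skeletal muscle, adipocyte, endothelial and fibroblast genes. For T cell genes its mean was 4.05, against 4.07 in male WT 2. For erythroid genes it was 4.95, against 4.94 in male WT 1. Lor was not called with female null 2, female WT 2, male null 2 or male WT 2 left out (0.0716 to 0.114).

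Skeletal muscle genes fell in 8 of 10 (median -0.88), where 5.99% of all genes fell. Their list means were 9.86 in female WT 1, 9.04 to 9.46 in the other WT arrays and 8.27 to 8.86 in null skin. Falls numbered 4 without male WT 1, 3 without male null 2 or female null 1 and 5 without female null 2. Langerhans and dendritic cell markers rose in 5 of 8 (median 0.28), where 7.07% of all genes rose. The largest rises in the limma fit were in Itgax (0.79, SE 0.11, adjusted p = 0.00303), H2-Ab1 (0.65, adjusted p = 0.0125) and H2-Aa (0.48, adjusted p = 0.0204). Rises of this list numbered 2 without male WT 1, female WT 2 or female null 1. They numbered 3 without male WT 2, male null 2 or female null 2 and with same-numbered mice as a block. H2-Aa was not called with either WT male, female null 1 or female WT 2 left out (0.0502 to 0.0681).

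The remaining marker lists had at most 1 change each, where 7.07% of all genes rose and 5.99% fell. Of 7 T cell genes Cd3g rose (0.20, adjusted p = 0.0386), of 7 mast cell genes Ms4a2 fell (by 0.37, adjusted p = 0.0105), of 6 fibroblast genes Dcn fell (by 0.83, adjusted p = 0.0398), and of 6 endothelial genes Pecam1 rose (0.27, adjusted p = 0.0287). Of 5 adipocyte genes 0 passed (limma; 0 at an unadjusted p under 0.05) and of 2 erythroid genes 0 (1 at an unadjusted p under 0.05). Cd3g kept its call only without male null 1, Dcn without male WT 2 or male null 1, and Pecam1 without female null 2, female WT 1 or male WT 1 (adjusted p 0.0563 to 0.116 where lost). Cd3g lost it with same-numbered mice as a block too (0.0537), and Pecam1 without a sex term (0.0817). Mast cell falls numbered 5 and T cell rises 2 without male null 1, and endothelial rises 2 without female WT 1. T cell markers were near or under the negative control medians, with list means of 3.96 to 4.22 over all arrays.

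Genes of bone, platelets and primary granules were also looked at, chosen after their values were seen. The bone matrix gene Ibsp read 5.80 and 5.27 in WT males and 7.75 and 7.35 in WT females, and Bglap, osteocalcin, read 7.22, 6.74, 8.34 and 7.83. Both were higher in both WT females than in the WT males. The platelet gene Pf4 read 6.17, 5.77, 6.82 and 5.57, while the platelet integrin gene Itga2b read 5.47, 5.51, 5.61 and 5.40. The primary granule genes Elane (4.93) and Mpo (5.35), of immature neutrophils of the marrow, were highest in female WT 1, where the other WT arrays read 3.93 to 4.10 and 4.10 to 4.30. What tissue lay under the skin of this paw was not tested.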

How the data were processed

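RNA from forepaw skin was measured on single-colour Affymetrix arrays, 1 per mouse. The authors deposited log2 signals, 1 per probe set and array; Partek and RMA are the tools in the submitters' processing notes. For their versions, settings, genome build and annotation the entry is: not given in the sources used here. RMA summarises probes after background correction and quantile normalization and compresses large fold changes. No detection p was used here. The number of arrays limits the precision.

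Of 72688 probe sets, 6918 controls or unmapped rows were left out. GEO's platform annotation named 1 gene for 31093 and several for 1492; symbols were updated through a RefSeq table (GRCm38.p6) for 1135 probe sets, and the brightest probe set stood for each of the 314 genes with several. This left 30687 genes. Array medians of the negative controls were 4.26 to 4.46. Positive controls lay 3.34 to 3.54 above the negative ones.

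Tests used limma 3.58.1 in R 4.3.3 with an intensity trend and a Benjamini-Hochberg adjusted p under 0.05 over all genes. The genotype fit had sex as a covariate (5 residual degrees of freedom). The interaction came from 4 group means and the slopes from 1 fit with a slope per genotype (4 residual degrees of freedom each). Both were tried on simulated data. The ratio by sex used an exact permutation test. Promoter windows came from RefSeq; both genes matched. Tables were made with Python 3.11.15, pandas 2.3.3 and numpy 2.4.6, and plots with matplotlib 3.10.9.

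The members, the gene lists and the comparisons were chosen with earlier results of these data known. Genes named are the pair, Krt16, sex label genes, the 3 largest rises and falls called in each list (or the 2 smallest p where none was), the measured genes within 3 places of the pair on the chromosome, the 8 nearest genes and the 8 smallest p of each slope. Other genes, chosen after their values were seen, are Tlr4, Ager, Cd14, Jun, Cebpb, Stat3, Spi1, Il24, Il1f9, Il1f6, Il17a, Il22, Pglyrp1, Pglyrp3, S100a3, Camp, Mpo, Elane, Ly6g, Csf3r, Lyz2, Krt14, Cybb, Vsig4, Krt82, Ibsp, Bglap, Pf4 and Itga2b. Provisional symbols were passed over.

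Mice carry numbers in the labels. Deviations from the group means, compared across genes between same-numbered WT and null mice, had a correlation of 0.317 for males and 0.113 for females; the 4 pairs therefore entered an alternative fit as a block. The labels do not say what a number shares. Other alternatives were repeated quantile normalization, median centring, a filter on dim genes, the mean of probe sets, no trend, a robust prior, no sex term, either gene alone, sex in the slope fit and each array left out. The values of the pair under the filter, probe set, trend, prior and sex-term settings, the neutrophil list without Stfa2l1 and the slope of each gene called within WT without female WT 1 were added after seeing the data.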

Additional observations from a re-analysis of the deposited data

Results flagged for a closer look

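Dixon's test flags about 1 in 20 groups by chance and was run on 44 groups, from both genotypes, the 19 gene lists and the pair's own measures. It flagged 3 of the 44, which is near that share. All 3 were gene list means among WT arrays with female WT 1 standing apart, so they rest on the same array. The mean of the NADPH oxidase genes was 5.3157 in female WT 1, with a gap to the next array of 0.886 of the range. The neutrophil list mean was 5.2318 there (0.936 of the range), and the monocyte and macrophage list mean was 6.6271 (0.839 of the range). The NADPH oxidase list holds the phagocyte genes Cybb, Rac2 and Ncf1, which read 5.85, 6.06 and 6.25 in that array. S100a8 and S100a9 themselves did not stand apart by this test in either genotype.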

How the results depend on the processing

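The differences of S100a8 and S100a9 between genotypes kept their direction in all settings run. In the fit with sex as a covariate they ran from 5.16 to 6.71 and from 4.93 to 6.39 without 1 array. After repeated quantile normalization they were 5.61 and 5.31. Their interaction ran from 1.50 to 4.98 and from 0.69 to 4.35 without 1 array. Over all genes the genotype comparison called 4006 and, without 1 array, 2056 to 4161. With the pairing of same-numbered mice as a replicate block it called 4563, and the differences of the pair stayed at 5.69 and 5.40. The interaction called 2 genes, 1 with dim genes left out, and 1 to 27 without 1 array. Slopes within WT called 35 genes, but 16 after repeated quantile normalization, 13 with S100a8 alone, 65 with S100a9 alone, 60 with sex added and 0 to 65 without 1 array. Slopes within null called 2 genes, 1 with median centring, and 0 after repeated quantile normalization, with dim genes left out, with no trend or with S100a8 alone (783 to 1732 at an unadjusted p under 0.05), and 0 to 1 without 1 array. The difference of the slopes called 3, 1 with median centring, and 0 in the same other settings and with sex added (861 to 1848 at an unadjusted p under 0.05), and 0 to 1 without 1 array. The causes were not tested. For the genes named, 127 of 1905 genotype values under an alternative lost a call, 35 gained one and 0 changed direction while called; among 436 slopes 72 lost and 4 gained one. Signals under the negative control medians limit what can be read of the WT levels.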
